A study of Mus musculus with 10 samples.

Results

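Transcripts of 10 enzymes of glycolysis and lactate metabolism were followed in the adult mouse left atrium after inducible removal of the T-box transcription factor Tbx5. The genes were Pfkm, Pfkp, Pfkl, Aldoa, Pgk1, Pgam2, Eno1, Eno3, Ldha and Ldhb, taken by symbol from a table of 23337 genes. RNA was sequenced from 10 libraries, each labelled as its own animal, 6 labelled knockout and 4 labelled control. In the knockout animals, a tamoxifen-activated Cre recombinase under the ubiquitous R26 promoter had excised exon 3 of Tbx5 (0.167 mg tamoxifen daily, 3 days), with the tissue collected after 1 week. Deletion was therefore not restricted to cardiomyocytes. Control animals were wild type (Tbx5 +/+), and whether they carried Cre or received tamoxifen is not given in the sources used here. All animals were of mixed C57B6 and 129 background, aged 8 to 10 weeks by the sample labels and 6 to 8 weeks by the protocol. By label, 3 knockout and 2 control animals were female. Levels are the authors' normalized read counts, mean ± SD over 6 knockout and 4 control libraries, unless stated otherwise.

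Glycolysis splits glucose into pyruvate in the cytosol. Phosphofructokinase commits fructose 6-phosphate to the pathway, aldolase cleaves the product, phosphoglycerate kinase makes ATP, and phosphoglycerate mutase and enolase lead to phosphoenolpyruvate. Lactate dehydrogenase interconverts pyruvate and lactate. Most of these enzymes exist as isoforms: Pfkm, Pgam2 and Eno3 encode the muscle forms, Pfkl, Pfkp and Eno1 are named for liver, platelet and ubiquitous forms, and Ldha and Ldhb encode the M and H subunits of the lactate dehydrogenase tetramer. The adult heart takes most of its ATP from fatty acids and imports lactate as a fuel, and its lactate dehydrogenase is rich in the H subunit.

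Assigned reads numbered 5789632 to 7355782 per knockout library and 5701670 to 7697556 per control library. Tbx5 (chr5:119832668-119885219, plus strand, GRCm38) had 1952 ± 336 normalized counts in knockout libraries and 939 ± 125 in control libraries, a log2 fold change of 1.03 ± 0.14 (edgeR quasi-likelihood test, Benjamini-Hochberg adjusted p = 4.78e-05). A count over the whole gene does not measure loss of 1 exon, and its direction runs against the knockout label, so "knockout" and "control" below mean the libraries so labelled. RNA of Xist and of 4 Y-linked genes went against the labelled sex in 4 of 4 control libraries and 0 of 6 knockout libraries, and knockout M3 and control F1 held both kinds. Marker genes of other cells also differed between the groups. Summed macrophage markers were 6903 to 10547 in knockout and 3332 to 4453 in control libraries (7 of 7 higher). Fibroblast markers summed to 34861 to 49400 in knockout and 18239 to 20232 in control libraries (5 of 7 higher, 1 lower), and markers of dividing cells to 834 to 2313 in knockout and 78.5 to 269 in control libraries (6 of 6 higher). Atrial cardiomyocyte markers summed to 84743 to 198535 in knockout and 322365 to 375082 in control libraries, with 5 of 5 tested genes lower, while general cardiomyocyte markers overlapped, at 256016 to 356682 in knockout and 316784 to 360809 in control libraries, with 3 of 7 genes higher and 2 lower. Ventricular markers summed to 5183 to 9351 in knockout and 831 to 1522 in control libraries (2 of 4 tested genes higher, Irx4 at 0 throughout). Smooth muscle markers summed to 912 to 2129 in knockout and 415 to 519 in control libraries (3 of 4 higher), and endothelial markers to 6858 to 7541 in knockout and 5841 to 6652 in control libraries (3 of 5 higher, 1 lower). Skeletal muscle markers, which bear on the muscle isoforms, summed to 193 to 690 in knockout and 44.0 to 61.3 in control libraries, with 1 of 2 tested genes higher, the skeletal actin Acta1. Acta1 alone had 163 to 669 normalized counts in knockout and 4.23 to 16.2 in control libraries. Actn3 did not pass, at 20.7 ± 4.63 in knockout and 24.4 ± 5.83 in control libraries. The remaining skeletal muscle markers had too few reads to be tested. Apart from Irx4, no marker of these lists was at 0 in all libraries. In bulk tissue, a change in the number of cells of a type and a change in RNA per cell cannot be told apart, and the part of these markers in the enzyme results was not tested.

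Of the 10 enzymes, 9 had reads and were tested. In knockout libraries 4 were higher (Pfkp, Pgk1, Eno3 and Ldha), 3 were lower (Pfkm, Pgam2 and Ldhb), and 2 did not pass an adjusted p of 0.05 (Pfkl and Aldoa). Of all 13191 tested genes 42.6% passed, 20.8% higher and 21.8% lower, so 7 of 9 enzymes stand against a high background. Knockout and control libraries did not overlap for 6 of the 9 enzymes, against 31.3% of all tested genes. The changes were small: the median absolute log2 fold change was 0.43 for the 7 enzymes past the test and 0.67 for the 5622 genes past it. The median signed log2 fold change was 0.20 over the 9 enzymes and -0.0009 over all tested genes. In the authors' deposited table the log2 fold changes of the 9 enzymes had the same signs, with -0.67 for Pgam2 and 0.62 for Pgk1 at the ends.

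**Figure D1:**
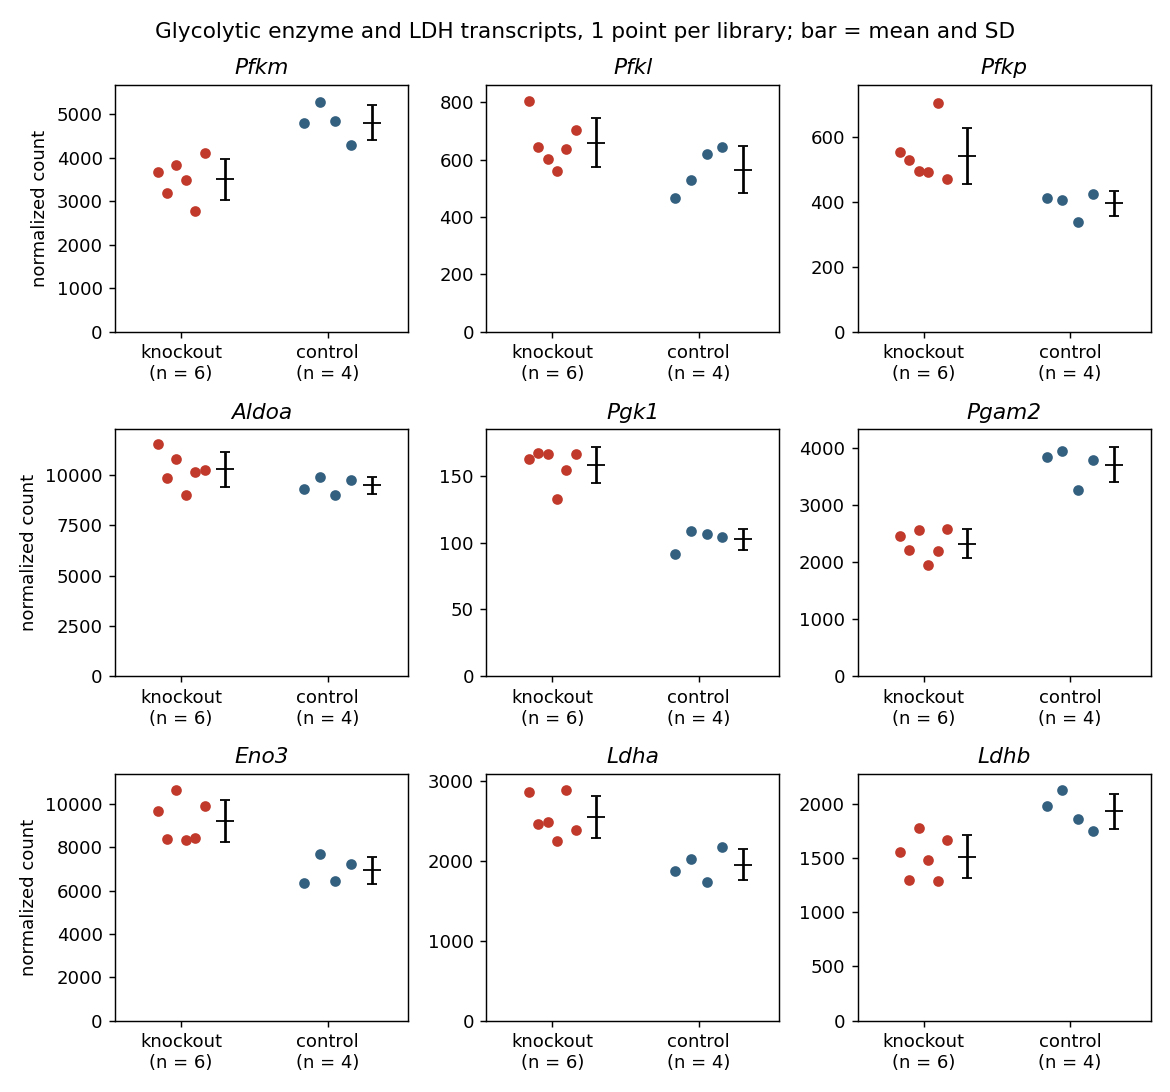
Normalized read counts of the 9 enzymes with reads, 1 panel per gene with its own axis, in 6 knockout libraries (left) and 4 control libraries (right); points are libraries and bars show the mean ± SD. Knockout points lie wholly above control points for Pfkp, Pgk1, Eno3 and Ldha and wholly below them for Pfkm and Pgam2, while the groups overlap for Pfkl, Aldoa and Ldhb.

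Phosphofructokinase transcripts moved in opposite directions by isoform. Pfkm (chr15:98092589-98132451, plus strand), the muscle isoform, had 2769 (lowest), 3566 (median) and 4096 (highest) normalized counts in knockout libraries, against 4783, 5273, 4840 and 4299 in control libraries F1, F2, M1 and M2. Every knockout library lay below every control library, and the log2 fold change was -0.48 ± 0.12 (adjusted p = 0.00449). Pfkp (chr13:6579768-6648777, minus strand), the platelet-type isoform, had 472, 513 and 706 in knockout libraries, against 413, 407, 339 and 425 in control libraries F1, F2, M1 and M2. All knockout libraries were above all controls, with a log2 fold change of 0.43 ± 0.12 (adjusted p = 0.00934). Pfkl (chr10:77986947-78010083, minus strand), the liver-type isoform, had 560, 642 and 803 in knockout libraries, against 467, 528, 620 and 645 in control libraries. Here the groups overlapped, and the log2 fold change of 0.20 ± 0.12 did not pass (adjusted p = 0.197). It passed when libraries were scaled to their size alone (0.33, adjusted p = 0.0382), a scaling that moves the median of all genes to 0.14. It also passed in the libraries labelled female alone (0.43, adjusted p = 0.0263). There the knockout libraries were high in Xist and the control libraries in Y-linked RNA, so group and sex-linked RNA cannot be told apart.

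Per kilobase of the principal transcript, Pfkm remained the main isoform in both groups. It made up 79.6% ± 3.39 of the summed phosphofructokinase counts per kilobase in knockout libraries and 87.0% ± 1.81 in control libraries. Pfkl held 10.0% to 13.3% in knockout libraries and 6.64% to 9.78% in control libraries. Pfkp held 6.61% to 13.1% in knockout libraries and 4.24% to 5.80% in control libraries. The ratio of 2 isoforms within a library does not depend on how libraries are scaled. The log2 ratio of Pfkp to Pfkm counts averaged -2.69 ± 0.40 in knockout and -3.60 ± 0.21 in control libraries, a difference of 0.91. For Pfkl to Pfkm the means were -2.41 ± 0.24 in knockout and -3.09 ± 0.30 in control libraries, a difference of 0.69. In both ratios all knockout libraries were above all controls (exact two-sided permutation test, p = 0.00952, the smallest that 210 splits allow, and the same after Benjamini-Hochberg adjustment over 3 ratios). The ratio to Pfkm was 1.87-fold higher for Pfkp and 1.61-fold higher for Pfkl in knockout libraries.

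Some Pfkp reads could belong to a neighbour. An exon of Pfkp overlaps the opposite-strand gene Pitrm1, a mitochondrial peptidase, by 748 bases, and 17.0% of the 51-base windows of the Pfkp transcript also occur there. Pitrm1 itself had 370 to 432 normalized counts in knockout and 408 to 473 in control libraries, with overlap, and did not pass (log2 fold change -0.13, adjusted p = 0.231). The part of shared reads in the Pfkp result was not tested. Pfkm overlaps Senp1 on the opposite strand by 18 bases, and Senp1 did not pass (adjusted p = 0.689). An exon of Pfkm also overlaps the same-strand gene Gm26513 by 341 bases, and Gm26513 has no counts here. None of the 51-base windows of the principal Pfkm transcript occurs in another annotated gene.

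Aldoa (chr7:126795234-126800751, minus strand) encodes aldolase A, the muscle and general form that splits fructose 1,6-bisphosphate. It had 9023, 10194 and 11551 normalized counts (lowest, median and highest) in knockout libraries, against 9299, 9882, 9001 and 9731 in control libraries F1, F2, M1 and M2. The groups overlapped, and the log2 fold change was 0.09 ± 0.10 (adjusted p = 0.463). Scaled to library size alone it was 0.23 and lay just past the threshold (adjusted p = 0.05), and with length and GC offsets it was -0.13 (adjusted p = 0.241). Aldoa had the highest level per kilobase of the enzymes, 6799 ± 567 in knockout and 6273 ± 267 in control libraries. Its intronless relatives Aldoart1 and Aldoart2, which share part of its sequence, did not pass either (adjusted p = 0.345 and 0.165).

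Pgk1 (chrX:106187100-106203699, plus strand), the phosphoglycerate kinase that makes the first ATP of the pathway, was 1.52-fold higher in knockout libraries. Its levels were 133, 165 and 167 normalized counts (lowest, median and highest) in knockout libraries, against 91.4, 109, 106 and 104 in control libraries F1, F2, M1 and M2. No knockout library overlapped a control, and the log2 fold change was 0.60 ± 0.11 (adjusted p = 0.000487). These levels rest on 79 to 192 reads per library. Of the 51-base windows of its transcript, 67.9% also occur in other annotated genes, first in the Pgk1-rs7 copy. How the authors treated reads that map to several genes is not given, so the Pgk1 count may cover only the part of the transcript that is its own, and it is left out of the order of levels.

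Pgam2 (chr11:5801640-5803733, minus strand), the muscle phosphoglycerate mutase, changed most among the enzymes and fell. It had 1950, 2332 and 2584 normalized counts (lowest, median and highest) in knockout libraries, against 3835, 3949, 3259 and 3798 in control libraries F1, F2, M1 and M2. The highest knockout library lay below the lowest control, and the log2 fold change was -0.70 ± 0.10 (adjusted p = 0.000133), a level 1.62-fold higher in control libraries. None of its 51-base windows occurs in another annotated gene. Pgam2 passed in every one of the 24 alternative fits, including the libraries labelled male alone, where none of the other enzymes passed. The brain-type mutase Pgam1 had 15.4 ± 4.71 normalized counts in knockout and 14.8 ± 3.85 in control libraries, with 41.4% of its windows shared with copies.

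Eno3 (chr11:70657202-70662513, plus strand), the muscle enolase, rose, in contrast to the muscle forms Pfkm and Pgam2. It had 8313, 9042 and 10620 normalized counts (lowest, median and highest) in knockout libraries, against 6370, 7684, 6440 and 7219 in control libraries F1, F2, M1 and M2. The groups did not overlap, and the log2 fold change was 0.39 ± 0.11 (adjusted p = 0.0109). It did not pass with offsets for transcript length and GC content (0.17, adjusted p = 0.175) or without knockout M3 and control F1 (0.33, adjusted p = 0.0633).

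Eno1 (chr4:150236721-150248879, plus strand), the ubiquitous enolase, is listed at 0 in all 10 libraries and was not tested. A count of 0 allows up to 0.408 to 0.518 CPM of reads assigned to Eno1 in knockout libraries and 0.39 to 0.526 CPM in control libraries (3 counts of each library's total, counting error only), which bounds assigned reads and not the transcript. Of the 51-base windows of its transcript, 71.9% also occur in other annotated genes, 70.3% in the near-identical Eno1b. Eno1b, listed as Gm5506, had 4.36 to 24.7 normalized counts in knockout and 0 to 11.9 in control libraries, with a log2 fold change of 1.28 ± 0.63 that did not pass (adjusted p = 0.118). Gapdh, the glyceraldehyde 3-phosphate dehydrogenase, combined low counts with shared sequence, at 11.3 ± 4.28 normalized counts in knockout and 14.9 ± 5.89 in control libraries and 82.4% of its windows shared. The zero therefore says nothing on whether Eno1 is transcribed, and no Eno1 to Eno3 ratio could be formed. The neuronal enolase Eno2 did not pass (log2 fold change -0.27, adjusted p = 0.547).

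**Figure D2:**
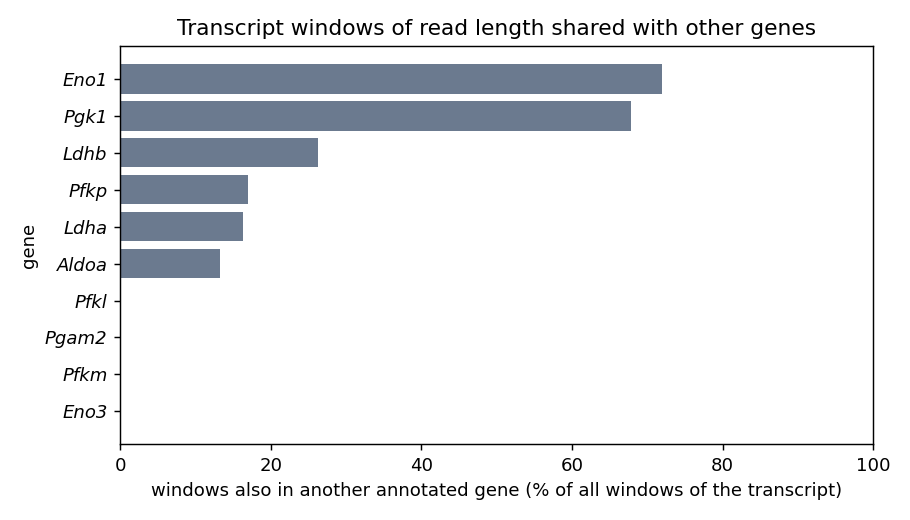
Share of the 51-base windows of each enzyme's principal transcript (x axis, percent of all its windows) that also occur in another annotated gene, 1 bar per gene (y axis). Eno1 (71.9%) and Pgk1 (67.9%) have the longest bars, Ldhb, Pfkp, Ldha and Aldoa lie between 13.3% and 26.3%, and Pfkl, Pgam2, Pfkm and Eno3 are at or near 0.

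The lactate dehydrogenase subunits moved in opposite directions. Ldha (chr7:46841475-46855627, plus strand), the M subunit, had 2245, 2470 and 2884 normalized counts (lowest, median and highest) in knockout libraries, against 1874, 2024, 1738 and 2177 in control libraries F1, F2, M1 and M2. Every knockout library was above every control, and the log2 fold change was 0.36 ± 0.10 (adjusted p = 0.0107). Ldhb (chr6:142490249-142507957, minus strand), the H subunit, had 1283, 1518 and 1776 in knockout libraries, against 1981, 2122, 1860 and 1747 in control libraries. The knockout libraries were lower apart from an overlap with control M2, and the log2 fold change was -0.38 ± 0.11 (adjusted p = 0.0137). Ldha did not pass with the length and GC offsets (0.17, adjusted p = 0.128), nor Ldhb with scaling to library size alone (-0.24, adjusted p = 0.0691) or without control F2 (-0.30, adjusted p = 0.0595).

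The balance of the subunits separated the groups. The log2 ratio of Ldha to Ldhb counts was 0.88, 0.93, 0.48, 0.60, 1.17 and 0.52 in knockout libraries F1, F2, F3, M1, M2 and M3, against -0.08, -0.07, -0.10 and 0.32 in control libraries F1, F2, M1 and M2. All knockout libraries lay above all controls. The means were 0.76 ± 0.27 in knockout and 0.02 ± 0.20 in control libraries, a difference of 0.75, which is a 1.68-fold higher ratio (exact two-sided permutation test, p = 0.00952, the smallest possible, adjusted p = 0.00952 over 3 ratios). Per kilobase, Ldha made up 55.6% ± 4.63 of the summed subunits in knockout libraries and 42.8% ± 3.42 in control libraries. These are transcript shares, and protein or enzyme activity was not measured. Of the 51-base windows, 16.3% of Ldha and 26.3% of Ldhb occur in annotated copies, so the subunit shares are uncertain as levels.

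**Figure D3:**
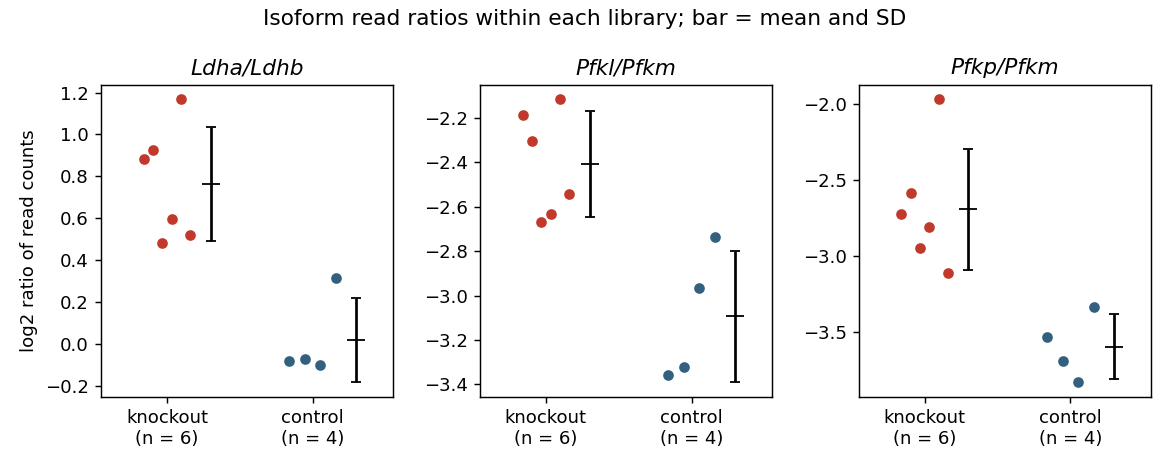
Log2 ratio of the counts of 2 isoforms within each library (y axis) for Ldha to Ldhb, Pfkl to Pfkm and Pfkp to Pfkm, with knockout libraries left of control libraries; points are libraries and bars show the mean ± SD. In each panel the 6 knockout points lie above the 4 control points, by 0.75, 0.69 and 0.91 between the means.

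The 250 bases before the RefSeq start (GRCm38.p6) are given for both lactate dehydrogenases, which moved in opposite directions, and for Pgk1 and Pgam2, which had the largest rise and fall. Capitals mark ACGTG on either strand, a core shared by hypoxia-response elements and, as CACGTG, by E-boxes of MYC and MLX family factors. A CACGTG run counts once on each strand.
Ldha, chr7:46845554-46845803, plus strand: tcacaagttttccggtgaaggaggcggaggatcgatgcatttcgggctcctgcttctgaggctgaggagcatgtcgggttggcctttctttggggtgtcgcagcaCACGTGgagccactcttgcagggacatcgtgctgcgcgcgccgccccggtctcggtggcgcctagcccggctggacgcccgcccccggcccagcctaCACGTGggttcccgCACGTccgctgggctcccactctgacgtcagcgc
Ldhb, chr6:142507958-142508207, minus strand: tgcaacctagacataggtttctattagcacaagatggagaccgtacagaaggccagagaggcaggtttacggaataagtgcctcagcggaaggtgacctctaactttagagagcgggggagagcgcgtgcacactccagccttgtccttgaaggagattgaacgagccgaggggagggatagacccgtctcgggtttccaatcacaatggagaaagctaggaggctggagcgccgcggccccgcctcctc
Pgk1, chrX:106186850-106187099, plus strand: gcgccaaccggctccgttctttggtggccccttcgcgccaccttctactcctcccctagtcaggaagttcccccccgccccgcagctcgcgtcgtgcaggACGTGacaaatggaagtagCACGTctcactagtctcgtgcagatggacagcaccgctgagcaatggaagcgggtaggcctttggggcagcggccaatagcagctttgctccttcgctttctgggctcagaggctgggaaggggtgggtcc
Pgam2, chr11:5803797-5804046, minus strand: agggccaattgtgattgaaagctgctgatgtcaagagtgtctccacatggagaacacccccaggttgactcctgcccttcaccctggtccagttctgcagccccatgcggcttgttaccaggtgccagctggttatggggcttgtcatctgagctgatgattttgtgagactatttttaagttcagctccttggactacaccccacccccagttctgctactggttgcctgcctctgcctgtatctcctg
All 10 enzymes had a promoter in the RefSeq table. ACGTG occurred in 3 of the 10 windows, Ldha with 5 matches, Pgk1 with 2 and Pfkm with 2, and in 16.6% of 32851 promoter windows. Ldha and Pgk1 rose and Pfkm fell, and the other rising genes, Pfkp and Eno3, had no match. AGGTGT, the core of T-box motifs, and the longer TCACACCT occurred in 0 of 10 windows, against 11.8% and 1.12% of all promoters. Such matches are descriptions of sequence and were not tied to binding of any factor, and genes with several start sites are shown by 1 of them.

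Levels per kilobase placed the enzymes in a similar order in both groups. In knockout libraries the order was Aldoa (6799 ± 567), Eno3 (5892, libraries from 5316 to 6790), Pgam2 (2769 ± 298), Ldha (1446 ± 149), Pfkm (1217 ± 164), Ldhb (1157 ± 152), Pfkl (177 ± 22.9) and Pfkp (131 ± 20.6). Among neighbours, the libraries of Aldoa and Eno3, of Ldha, Pfkm and Ldhb, and of Pfkl and Pfkp overlapped. In control libraries the order was Aldoa (6273 ± 267), Eno3 (4430 ± 405), Pgam2 (4417 ± 366), Pfkm (1667 ± 138), Ldhb (1478 ± 124), Ldha (1106 ± 107), Pfkl (151 ± 22.1) and Pfkp (95.5 ± 9.29). There Eno3 and Pgam2 overlapped, as did Pfkm and Ldhb. Ldha thus stood above Ldhb in knockout and below it in control libraries, and Pgam2 stood close to Eno3 in control libraries alone.

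Most genes of the remaining steps of glycolysis did not pass. Of the other glycolytic genes reported here, 1 rose and 10 did not pass. Tpi1, the triosephosphate isomerase, had 3148 ± 372 normalized counts in knockout and 2528 ± 159 in control libraries (log2 fold change 0.29 ± 0.11, adjusted p = 0.0371), and this call was lost in 9 of 24 alternatives, among them the length and GC offsets (0.07, adjusted p = 0.55) and leaving out knockout F1 or M3 or control F1 or M1 (adjusted p = 0.0535 to 0.0814). The hexokinases Hk1 (0.10, adjusted p = 0.44) and Hk2 (-0.23, adjusted p = 0.22) and the glucose 6-phosphate isomerase Gpi1 (0.15, adjusted p = 0.146) did not pass. Pyruvate kinase M, listed as Pkm2, had 3686 ± 337 in knockout and 3154 ± 219 in control libraries and did not pass (0.20 ± 0.10, adjusted p = 0.108). Of the 51-base windows, 33.7% of Pkm2 and 24.7% of Gpi1 also occur in other annotated genes. Gpi1 and Pkm2 passed with library size only (adjusted p = 0.0137 and 0.00951) and with DESeq2 (adjusted p = 0.0394 and 0.0356), and Pkm2 also without knockout M1 (0.26, adjusted p = 0.0322). Log2 fold changes of Hk3, Gapdh, Pgam1, Bpgm, Eno2 and Adpgk ran between -0.42 and 0.19 without passing.

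**Figure D4:**
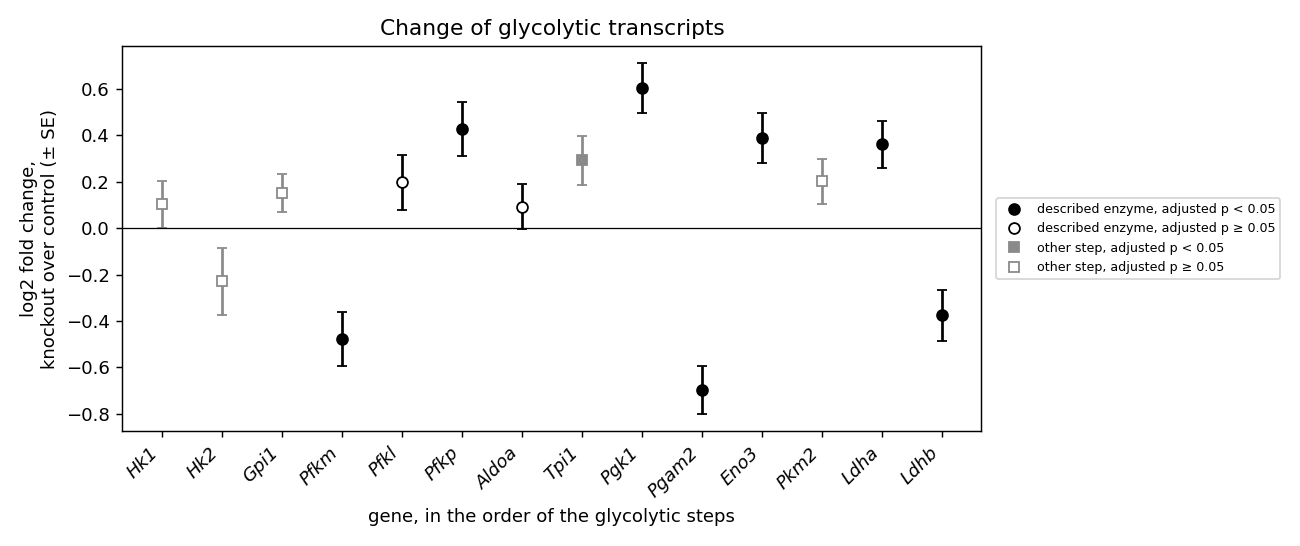
Log2 fold change (knockout over control, ± SE) of glycolytic genes in pathway order; circles are the enzymes described, squares other steps, and filled symbols passed an adjusted p of 0.05. Within a step the isoforms differ in sign, with Pfkm at -0.48 beside Pfkp at 0.43, and Ldha at 0.36 beside Ldhb at -0.38.

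Among genes that set the activator of phosphofructokinase, Pfkfb2 fell by more than any of the 9 enzymes changed. Fructose 2,6-bisphosphate, its strongest activator, is made and removed by bifunctional enzymes encoded by the Pfkfb genes. Pfkfb2, the cardiac isoform, had 343 ± 69.5 normalized counts in knockout and 1275 ± 143 in control libraries, 3.77-fold higher in the controls and without overlap (log2 fold change -1.92 ± 0.14, adjusted p = 5.36e-07). Tigar, a phosphatase that lowers fructose 2,6-bisphosphate and is listed as 9630033F20Rik, fell less, with 211 ± 33.1 in knockout and 286 ± 34.3 in control libraries (-0.46 ± 0.13, adjusted p = 0.0107). Pfkfb1 also fell (-1.13, adjusted p = 0.0345) at 7.88 ± 4.39 counts in knockout and 17.5 ± 8.81 in control libraries, a call lost in 9 alternatives, among them leaving out any knockout library but F3, or control F1 or F2. The Tigar call was lost with library size only, in the libraries labelled female or male alone, and without control M1 (adjusted p = 0.0549). In all, 3 of 6 tested genes fell and none rose, with a median of -0.45. Among all tested genes 20.8% rose and 21.8% fell, the background for this list and for those that follow. Pfkfb4 did not pass (0.37, adjusted p = 0.145) except without knockout M3 (0.47, adjusted p = 0.0356) or without knockout M3 and control F1 (0.56, adjusted p = 0.0299).

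Genes of pyruvate entry into mitochondria mostly did not pass: 10 of 15 did not, 4 fell and 1 rose (median -0.12). Those that passed were regulators of pyruvate dehydrogenase rather than its subunits. Pdk1, a kinase that inhibits the complex, fell to 902 ± 122 normalized counts in knockout libraries, against 1362 ± 104 in control libraries (-0.62 ± 0.11, adjusted p = 0.000539). The activating phosphatases also fell, Pdp1 by 0.59 (adjusted p = 0.00247) and Pdp2 by 0.79 on the log2 scale (adjusted p = 0.00464). In the libraries labelled female alone Pdp2 did not pass (-0.52, adjusted p = 0.0617). Another kinase, Pdk3, was higher (0.38, adjusted p = 0.0286), a call lost in 8 alternatives, among them leaving out knockout F1, F2 or M2 or control F1 or F2 (adjusted p = 0.0503 to 0.0848). The kinases Pdk2 and Pdk4 did not pass (adjusted p = 0.178 and 0.751). Pdk4 had 5531 ± 2075 normalized counts in knockout and 6287 ± 5587 in control libraries.

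Of the genes that handle lactate, the exporter gene Slc16a3 rose most. Slc16a3, the monocarboxylate transporter MCT4 of lactate-exporting cells, had 126 ± 31.2 normalized counts in knockout and 36.9 ± 9.26 in control libraries (log2 fold change 1.74 ± 0.21, adjusted p = 2.82e-05). Slc16a1, or MCT1, the main carrier of cardiomyocytes, rose as well, with 3425 ± 442 in knockout and 2544 ± 63.0 in control libraries (0.41 ± 0.11, adjusted p = 0.00748). Neither transporter overlapped between groups. Emb, a chaperone of monocarboxylate transporters, rose (0.97, adjusted p = 0.00876), and Ldhd, the mitochondrial D-lactate dehydrogenase, fell to 84.2 ± 13.4 in knockout libraries, against 145 ± 3.67 in control libraries (-0.81 ± 0.13, adjusted p = 0.000193). Of 7 tested genes 3 rose and 2 fell, with a median of 0.15. Slc16a3 is also expressed by macrophages, whose markers were higher in the same knockout libraries, and the part of those cells was not tested.

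Shuttles that carry cytosolic NADH into mitochondria, the other use of NADH made by glycolysis, had 2 of 10 genes higher, 1 lower and 7 not past the test (median 0.19). Both cytosolic glycerol 3-phosphate dehydrogenase genes rose. Gpd1 had 381 ± 108 normalized counts in knockout and 182 ± 19.3 in control libraries (1.04 ± 0.19, adjusted p = 0.000636), and Gpd1l had 620 ± 69.6 in knockout and 467 ± 46.1 in control libraries (0.38, adjusted p = 0.00912). Slc25a12, a mitochondrial aspartate and glutamate carrier of the malate-aspartate shuttle, fell (-0.36, adjusted p = 0.00537), though not past the test with the length and GC offsets (-0.21, adjusted p = 0.0752). Its relative Slc25a13 did not pass (0.31, adjusted p = 0.0554), but did in 9 alternatives, among them leaving out knockout F2, M1 or M2.

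**Figure D5:**
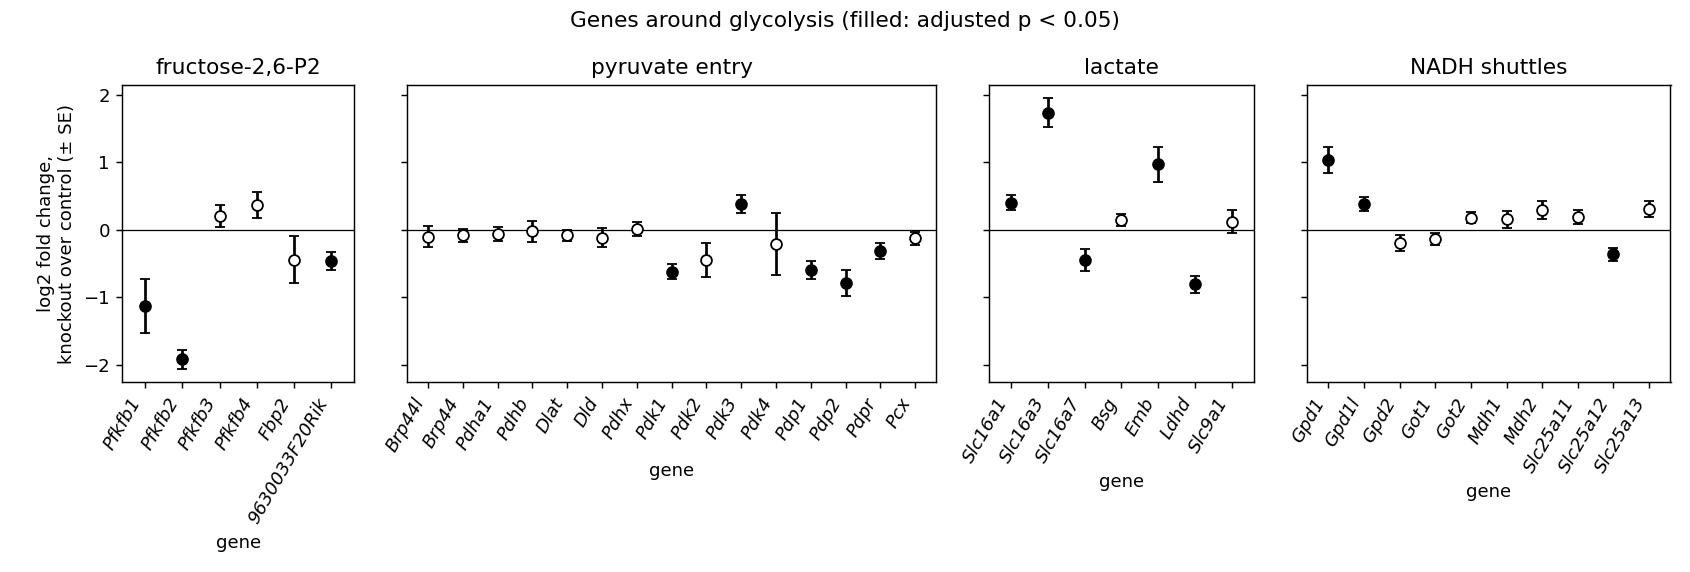
Log2 fold change (knockout over control, ± SE) of all tested genes for fructose 2,6-bisphosphate control, pyruvate entry, lactate handling and NADH shuttles; filled symbols passed an adjusted p of 0.05, and 9630033F20Rik is Tigar. Pfkfb2, at -1.92, and Slc16a3, at 1.74, lie farthest from 0.

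Over the 10 libraries, the genes whose log2 levels followed Pgam2 most closely were Xrcc5 (Pearson r = 0.986), Osbpl2 (0.979) and Chchd7 (0.978), all lower in knockout libraries. For Aldoa, the enzyme with the largest adjusted p, they were Mrpl2 (0.949), Dnaja3 (0.939) and 2410015M20Rik (0.931), none of which passed. These correlations describe libraries that share the 2 groups, and the first 3 follow the group difference itself. The group difference was also compared between labelled sexes, although the control libraries carry RNA of the other sex. By that RNA, each labelled sex sets knockout libraries against control libraries of the other sex. The test therefore cannot show whether the genotype effect differs by sex, and its results describe the labels only. None of the 9 enzymes passed the interaction test in edgeR, against 27 of 13191 genes, and none had an unadjusted p under 0.05, against 943 genes. With RLE scaling the enzyme counts were also 0. The largest difference was that of Pfkl, at -0.45 ± 0.22 (adjusted p = 0.711).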

How the data were processed

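RNA from the left atrium was sequenced as single-end reads of 51 bases, per the labels' protocols, which also name globin depletion and both an mRNA kit and ribosomal-depleted total RNA. FastQC, TopHat2 2.0.11, featureCounts, DESeq2 and mm10 are named in the submitters' processing notes. For the annotation, the strand setting and the handling of shared reads, the sources used here give nothing. The authors deposited a raw count per gene symbol and library, and a normalized signal, in which each library's counts are divided by its size factor. The authors' log2 fold change, its fold (ratio), Wald score and p-value stand in the same deposited table. Samples were grouped by title, and 0 columns of values were unmapped.

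Raw counts were tested with edgeR 4.0.16 in R 4.3.3 (filterByExpr, TMM, quasi-likelihood F-test, Benjamini-Hochberg over 13191 genes, threshold 0.05), on all 10 libraries without covariates. Adjusted p-values in the text come from this test unless another is named. The SE of a log2 fold change is its size divided by the square root of F. Isoform ratios were log2 ratios of raw counts within each library, without a pseudocount, and used exact permutation tests (scipy 1.17.1). Correlations used log2(normalized count + 1). Test functions were tested on simulated data. Gene positions, principal transcripts and 51-base windows came from GENCODE M21 (GRCm38), and promoters from RefSeq (GRCm38.p6). Each sample is labelled as its own animal, and no batch is given. Replicates did not agree within sampling noise (lowest chi-square per degree of freedom 4.34).

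Named genes are the 10 enzymes, Tbx5, the other glycolytic genes tested (1 is not reported here), up to 4 genes per pathway list with the smallest adjusted p, and 3 genes most correlated with each of 2 enzymes. Senp1 and Pitrm1, and the copies of the enzymes, are named for their overlap. Pdk2 and Pdk4 are named beside the other Pdk kinases. The members and lists were chosen with earlier results of these data known. Alternatives were other scalings, filters, tools (DESeq2 1.42.0, limma-voom with limma 3.58.1) and covariates, a replicate block, length and GC offsets, each labelled sex, and each library left out. In the fits of a single labelled sex, sex-linked RNA differed between knockout and control libraries, so it cannot be told apart from the group. Leaving out knockout M3 and control F1 together was chosen after seeing the data.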

Additional observations from a re-analysis of the deposited data

Results flagged for a closer look

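Within-group screens of the 9 enzymes and 3 isoform ratios, 24 groups in all, found 3 values far from the rest of their group, where chance flags about 1 in 20 groups. Pfkp was highest in knockout M2, at 706 normalized counts, with a gap to the next library of 0.657 of the group's range. Pgk1 was lowest in knockout M1, at 133 normalized counts, with a gap of 0.637 of the range. The log2 ratio of Ldha to Ldhb was highest in control M2, at 0.318, with a gap of 0.93 of the range, and this control lay closest to the knockout libraries.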

How the results depend on the processing

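Single genes were checked under the alternatives for the tested enzymes, Tpi1, Hk1, Hk2, Gpi1, Pkm2, Gapdh and the genes taken from the other pathway lists. The other named genes, such as Hk3, Pgam1 and Eno2, were not checked. No checked gene that had passed changed direction under any alternative run for it. Of the checked genes that had not passed, 4 changed sign, without passing. These were Aldoa with length and GC offsets (-0.13, adjusted p = 0.241), Pfkl (-0.001) and Hk1 (-0.03) in the libraries labelled male alone, and Gapdh (0.01) in those labelled female alone. In the libraries labelled male alone, 3 against 2, 2061 genes passed (1074 higher and 987 lower), with 0 enzymes higher and 1 lower. There 20 of the 30 checked genes that had passed did not. The Pfkl to Pfkm difference was 0.42 in the libraries labelled male alone, against 0.95 in the libraries labelled female alone. With length and GC offsets 2 enzymes were higher. With library size only, 3942 genes were higher and 2020 lower, against 2741 and 2881 with TMM, and 3085 and 2541 with upper-quartile scaling. The replicate block gave 5411 genes (2599 higher, 2812 lower) and the same 4 and 3 enzyme counts. Of the checked genes, the block ended the call of Tpi1 (0.20, adjusted p = 0.103). Same-numbered libraries did not deviate together (correlations -0.13, -0.06, -0.04 and 0.16 for F1, F2, M1 and M2), and 1 of 4 knockout libraries matched its own number best. Leaving out 1 library gave 4709 to 6085 genes, 2408 to 3042 higher and 2301 to 3043 lower, with 4 enzymes higher and 2 to 3 lower. The isoform differences ran from 0.60 to 0.80 (Pfkl to Pfkm), 0.76 to 0.99 (Pfkp to Pfkm) and 0.66 to 0.85 (Ldha to Ldhb). Without knockout M3 and control F1, 4716 genes passed, with 3 enzymes higher and 3 lower. Depth limits Gapdh (5 to 19 reads per library), Pgam1 (8 to 21), Eno2 (7 to 24), Pfkfb1 (3 to 26), Gm5506 (0 to 27) and Eya1 (5 to 35).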

Other observations

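Transcription factors and regulators of glycolysis moved in both directions, with 2 of 10 tested genes higher, 5 lower and 3 not past the test (median log2 fold change -0.39). Myc, a factor that drives many glycolytic genes, had 49.8 ± 16.8 normalized counts in knockout and 12.8 ± 4.58 in control libraries (log2 fold change 1.93 ± 0.31, adjusted p = 0.00025). Mlxipl, the carbohydrate-response factor ChREBP, had 61.9 ± 12.3 in knockout and 133 ± 17.6 in control libraries (-1.12 ± 0.16, adjusted p = 9.9e-05). Six4 and its cofactor Eya1, known from fast muscle genes, fell by 0.98 and 1.58 on the log2 scale (adjusted p = 0.000384 and 0.000464).

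Of 20 tested genes of the hypoxia pathway, 1 rose, 8 fell and 11 did not pass (median -0.09). Among all tested genes 20.8% rose and 21.8% fell. Kdm3a, a hypoxia-induced histone demethylase, fell by 0.53 (adjusted p = 0.00134), Vegfa by 0.41 (adjusted p = 0.011) and Bnip3, a mitophagy receptor, by 0.38 (adjusted p = 0.0146). Adm, which encodes adrenomedullin, rose by 0.80 (adjusted p = 0.0134). The falls of Vegfa and Bnip3 were not past the test with library size only, in the libraries labelled female or male alone, or without control M1.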
